A study of Mus musculus with 24 samples.

Results

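The 4 class I histone deacetylase (HDAC) genes Hdac1, Hdac2, Hdac3 and Hdac8 and 5 genes for their corepressor partners (Ncor1, Sin3a, Rcor1, Mta1 and Tbl1xr1) were followed in the mouse striatum by RNA sequencing (RNA-seq). The genes were taken by symbol, 9 of the 24340 genes that all 6 deposited tables share, and the rule for taking them uses no measured value. All 9 were at or above 1 FPKM, a read count scaled to transcript length and sequencing depth, in every group and every table. Of the 24340 genes, 12965 reached that level throughout.

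The study asked what inhibition of HDAC1 and HDAC3 does in a mouse model of Huntington's disease, and these 9 genes encode the drug's targets, their relatives and the scaffolds that hold them. Mice were male. R6/1 mice are hemizygous for a transgene with an expanded CAG repeat in exon 1 of human HTT on a C57BL/6J background, and wild type (WT) littermates served as controls. The 4 groups were WT-vehicle (5 libraries), R6/1-vehicle (6), WT-RGFP109 (6) and R6/1-RGFP109 (7), 24 in all. RGFP109, an inhibitor of HDAC1 and HDAC3, was injected intraperitoneally at 30 mg/kg, 5 times a week for 3 weeks (23 days in total), starting at 11 to 14 weeks of age. Both vehicle groups received the same volume of the solvent mixture on the same schedule, and striata were collected 18 h after the last injection, at 14 to 17 weeks. The transgene expresses a fragment of the human protein under the human HTT promoter and leaves both mouse copies of the gene in place.

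Class I HDACs remove acetyl groups from histone tails and from other proteins, and most of them work only inside large corepressor complexes. HDAC1 and HDAC2 are close relatives that share the Sin3, NuRD, CoREST and MiDAC complexes, whereas HDAC3 sits in the NCoR complex, where NCOR1 activates it and TBL1X or TBL1XR1 serves as an exchange and scaffold subunit. HDAC8 is not a stable part of any of these complexes. An inhibitor such as RGFP109 blocks the enzymes as proteins, so the amount of messenger RNA measured here is a separate quantity from enzyme activity, which RNA-seq does not read.

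Each table held 1 FPKM value per group, the authors' value over all libraries of that group. There was therefore no value per mouse, no error and no test for any difference below, and each is a description of size. The number of reads behind a value is unknown. A group's FPKM differed between its 3 tables by 0.132% to 3.77%, by a factor common to all genes, so ratios were taken within a table. In bulk tissue, fewer cells of a type and less RNA per cell cannot be told apart.

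The striatal label was checked with 8 genes of striatal projection neurons, the dopamine receptors Drd1 and Drd2 and the signaling protein Ppp1r1b among them. None was at 0 in any group. Their summed level was 3116 FPKM in WT-vehicle and 1080 in R6/1-vehicle, and 2965 and 969 in the WT and R6/1 groups given RGFP109, and all 8 were lower in R6/1-vehicle than in WT-vehicle. Drd1 was at 56.9, 28.5, 60.5 and 26.2 FPKM in the order WT-vehicle, R6/1-vehicle, WT-RGFP109, R6/1-RGFP109. Oligodendrocyte markers (5 genes) summed to 4411, 2482, 3453 and 2802 FPKM, and neocortical neuron markers (5) to 343, 189, 318 and 241. Choroid plexus markers (6) spread most, at 1483, 629, 321 and 39.6. Astrocyte (5 genes), microglial (5) and endothelial (4) markers were at 347, 169 and 22.9 FPKM in WT-vehicle and at 271, 142 and 16.2 in R6/1-vehicle. None of the markers in these 7 lists was at 0, and none was higher in R6/1-vehicle than in WT-vehicle. Their part in the differences described below was not tested.

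Hdac3 and Hdac2 were the most abundant of the 9 genes per transcript length. In WT-vehicle, Hdac3 was at 58.5 FPKM and Hdac2 at 54.0. These were above 88.1% and 86.8% of the 12991 genes at or above 1 FPKM in the 4 group values used for levels. Ncor1, the scaffold and activator of HDAC3, followed with 28.1 FPKM and Mta1, a NuRD subunit that recruits HDAC1 and HDAC2, with 23.1. Sin3a, the scaffold of the Sin3 complex, was at 11.9 FPKM, near the median of 12.6 over all genes. Tbl1xr1 was at 8.96, Hdac8 at 8.21 and Rcor1, which couples HDAC1 and HDAC2 to the demethylase KDM1A, at 5.35. Hdac1 was the lowest with 3.51 FPKM, above 16.3% of genes, and the highest of the 9 exceeded the lowest 16.7-fold. By these values one named target of RGFP109 was at the top of the list and the other at the bottom. The Hdac1 level is uncertain because of close copies in the genome, described below.

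**Figure D1:**
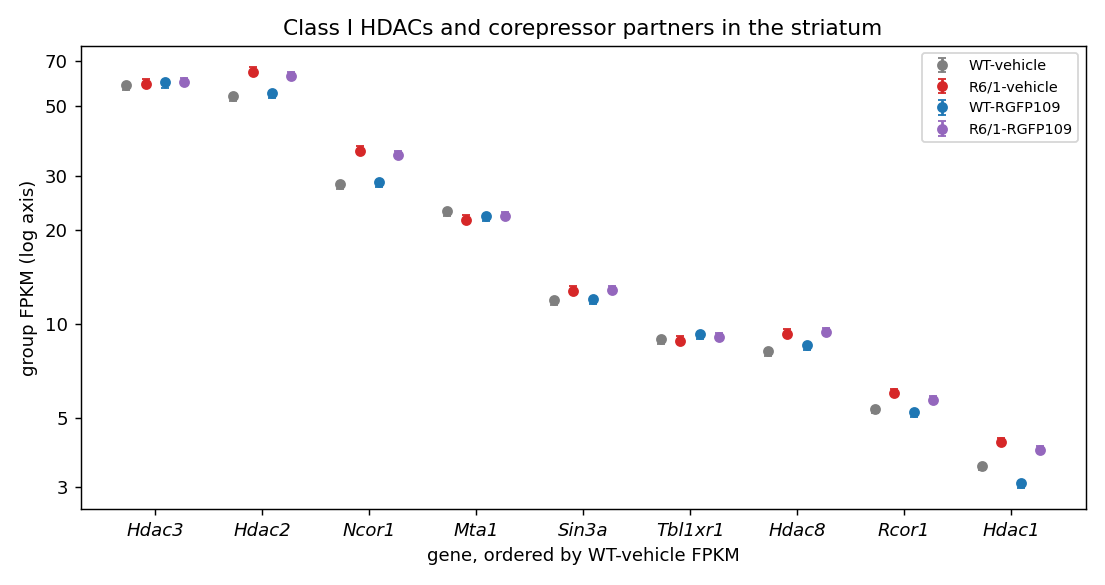
FPKM (log axis) of the 9 genes in the 4 groups; points are the authors' group values and whiskers the range of the same group over its 3 tables, which is a scaling range and not a spread between mice. Hdac3 stands level in all groups (58.5 to 59.7), while Hdac2, Ncor1, Sin3a, Hdac8, Rcor1 and Hdac1 are higher in both R6/1 groups than in both WT groups.

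The order was the same in WT-vehicle and WT-RGFP109. In both R6/1 groups, Hdac2 stood above Hdac3 and Hdac8 above Tbl1xr1, and the rest of the order was the one of the WT groups. Each group kept its order in all 3 of its columns. Hdac3 lies at chr18:37936971-37954988 (mm10, minus strand). Whether neighbors in the order differ beyond the spread between mice cannot be read from 1 value per group.

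Hdac1 and Ncor1 carry limits of their own. The Hdac1 gene lies at chr4:129516104-129542646 (mm10, minus strand), and its longest transcript in the GENCODE M21 annotation (2038 bases) has close copies elsewhere in the genome. The processed pseudogene Gm10093 on chromosome 17 was 99.4% identical over 1444 bases, and 2 further processed pseudogenes and Gm21834 were between 90.1% and 96.3% identical over 453 to 1469 bases. None of them is listed in the tables, and how reads that match several places were treated is not given in the sources used here, so the Hdac1 level is uncertain. Ncor1 (RefSeq chr11:62315663-62457414, minus strand) overlaps Ttc19 on the opposite strand, and the tables give both genes the same locus (chr11:62281473-62457332). Libraries were made with the Illumina TruSeq RNA kit, and whether counting used strand is not given in the sources used here. The Ncor1 level is therefore uncertain where the genes overlap. In GENCODE M21, Ncor1 also overlaps Pigl, a protein-coding gene on the opposite strand. Sin3a, Hdac8, Rcor1 and Tbl1xr1 overlap noncoding genes or pseudogenes on the opposite strand there, so the limit of strand applies to them as well. Ttc19 was at 27.2 FPKM in WT-vehicle and 25.2 in R6/1-vehicle, a log2 ratio of -0.10, against 0.35 for Ncor1. Gm6743, a processed pseudogene, matched 556 of the 9037 bases of Ncor1 at 94.8% identity. For the other 7 genes no transcript of another gene matched at 90% identity over 200 bases or more.

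The remaining genes other than Hdac3 lie on mm10 at chr10:36974544-37001888 (Hdac2, plus strand), chrX:102284640-102505148 (Hdac8, minus), chr9:57072040-57128368 (Sin3a, plus), chr12:111039798-111113386 (Rcor1, plus), chr12:113098278-113137206 (Mta1, plus) and chr3:22076652-22216594 (Tbl1xr1, plus). The table held a promoter for 7 of the 9 genes (RefSeq, GRCm38.p6), with none for Hdac1 and Hdac3. The start site used was the RefSeq one nearest to the deposited gene start, 431 bases away for Rcor1 and 10 for Hdac8. For all but Rcor1, the RefSeq gene begins upstream of that site, so part of the 250 bases before it lies inside the gene. For Tbl1xr1 all 250 do by RefSeq (gene start 22076253), and for Ncor1 by GENCODE M21 (gene end 62458541). The 250 bases before the site used had a median G and C content of 70.4%, against 52.4% over all 32851 promoters. Their median ratio of observed to expected CpG was 0.84, against 0.37. The promoters of 4 genes are printed, those of Ncor1 and Hdac2, whose genotype ratios under vehicle were the largest of the 7, that of Mta1, whose ratio was the lowest, and that of Hdac8, which had the fewest CpG sites (6). Sequences run 5′ to 3′ on the gene's strand, and capitals mark matches on either strand to GGGCGG (the GC box of Sp1 and KLF factors), to the CCAAT box, to CCGGAAG (a motif of ETS factors), to the TATA box or to the cAMP response element. The last of these was searched as TGACGTCA, and the TATA box as TATAAA.

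Ncor1, chr11:62457333-62457582, minus strand: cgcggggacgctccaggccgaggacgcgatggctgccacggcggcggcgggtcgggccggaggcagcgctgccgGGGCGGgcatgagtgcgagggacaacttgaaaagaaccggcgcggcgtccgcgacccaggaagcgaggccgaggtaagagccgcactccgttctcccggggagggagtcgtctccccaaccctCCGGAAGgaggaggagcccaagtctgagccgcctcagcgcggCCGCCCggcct
Hdac2, chr10:36974294-36974543, plus strand: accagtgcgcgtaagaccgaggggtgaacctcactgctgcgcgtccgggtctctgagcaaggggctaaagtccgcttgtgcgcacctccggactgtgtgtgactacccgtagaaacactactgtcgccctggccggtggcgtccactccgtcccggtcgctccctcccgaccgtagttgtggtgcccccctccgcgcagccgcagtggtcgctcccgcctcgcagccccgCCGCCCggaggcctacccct
Mta1, chr12:113098028-113098277, plus strand: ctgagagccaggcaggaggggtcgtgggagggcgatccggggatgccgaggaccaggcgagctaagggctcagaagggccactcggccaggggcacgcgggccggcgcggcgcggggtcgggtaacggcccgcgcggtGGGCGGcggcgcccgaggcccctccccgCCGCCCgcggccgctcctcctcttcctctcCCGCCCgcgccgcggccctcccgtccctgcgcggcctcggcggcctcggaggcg
Hdac8, chrX:102505159-102505408, minus strand: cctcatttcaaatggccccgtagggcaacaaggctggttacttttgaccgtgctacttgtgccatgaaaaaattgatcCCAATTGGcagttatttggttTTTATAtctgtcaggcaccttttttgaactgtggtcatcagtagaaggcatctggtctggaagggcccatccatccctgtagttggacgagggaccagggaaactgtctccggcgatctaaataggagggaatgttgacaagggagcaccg

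GGGCGG was found in 6 of the 7 promoters, all but that of Hdac8, and in 32.7% of all promoters. CCAAT was found in 3 (Hdac8, Sin3a and Rcor1), against 33.8% of all, CCGGAAG in Ncor1 alone (6.91% of all) and the TATA box in Hdac8 alone (12.4% of all). In Hdac8, the forward and reverse matches to CCAAT overlap. The cAMP response element was found in none of the 7, against 1.55% of all promoters. The promoters of Ncor1 and Mta1, with the highest and the lowest genotype ratio of the 7, were both rich in CpG sites (34 and 39).

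R6/1-vehicle was compared with WT-vehicle to ask whether these genes differ with genotype. Ncor1 had the largest ratio, with 35.9 FPKM in R6/1-vehicle and 28.1 in WT-vehicle (27.7% higher, log2 ratio 0.35). Hdac2 was at 64.7 against 54.0 FPKM (19.7% higher, log2 0.26) and Hdac1 at 4.18 against 3.51 (18.9% higher, log2 0.25). Hdac8, at 9.32 against 8.21 FPKM, and Rcor1, at 5.996 against 5.35, had log2 ratios of 0.18 and 0.16. These 5 genes had the highest ratios of the 9.

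Sin3a was at 12.8 FPKM in R6/1-vehicle and 11.9 in WT-vehicle, a log2 ratio of 0.10. Hdac3 was at 59.2 and 58.5 FPKM, a log2 ratio of 0.017, and 94.8% of the 13188 genes compared had a larger one in size. Tbl1xr1 was at 8.83 against 8.96 (log2 -0.022) and Mta1 at 21.6 against 23.1 (log2 -0.097). For Ncor1, 22.8% of genes had a larger ratio in size, for Hdac2 35.0% and for Hdac1 36.6%.

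None of the 9 genes passed an absolute log2 ratio of 0.5, which 12.1% of all genes passed. At a ratio of 1.2, Ncor1 passed, 1 of 9, where 34.4% of all genes passed in either direction and 13.7% upward. The median log2 ratio of the 9 genes was 0.16, with 7 above 0, while that of all genes was -0.0054 with 49.4% above 0. Summed striatal neuron markers had a log2 ratio of -1.53 and oligodendrocyte markers of -0.83 in the same comparison.

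**Figure D2:**
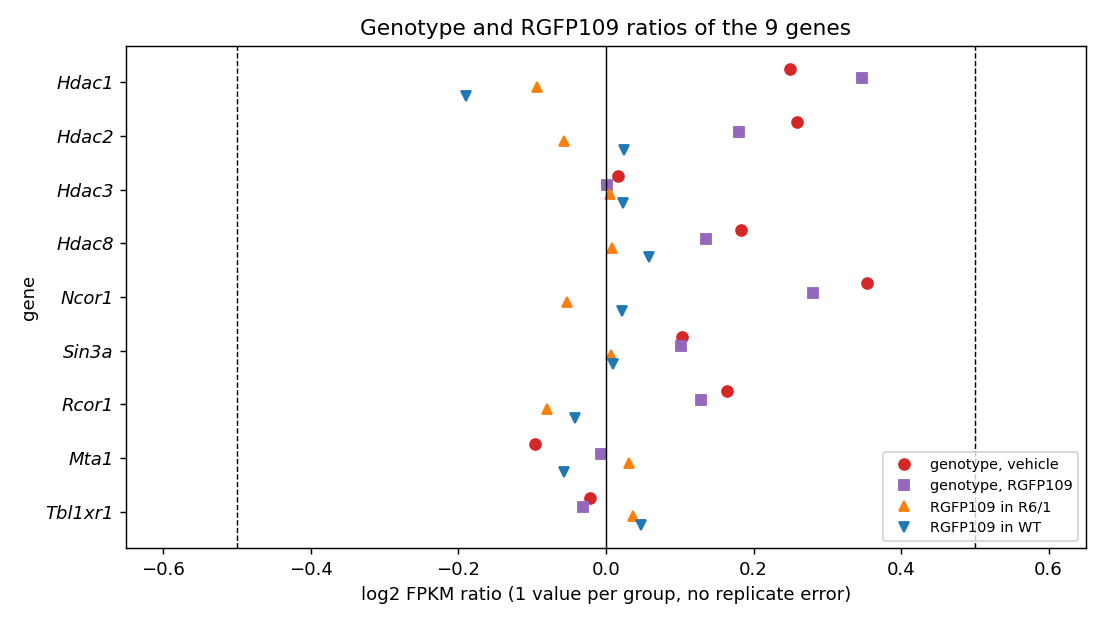
Log2 FPKM ratios of the 9 genes in the genotype comparison under vehicle and under RGFP109 and in the RGFP109 comparison in R6/1 and in WT mice; dashed lines mark 0.5 in size, and there is no replicate error to draw. All points lie between the lines, the genotype ratios of Ncor1 under vehicle (0.35) and Hdac1 under RGFP109 (0.35) farthest to the right and the RGFP109 ratio of Hdac1 in WT mice (-0.19) farthest to the left.

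The genotype comparison under RGFP109 used other mice, so its ratios share no library with those under vehicle. Hdac1 was at 3.93 FPKM in R6/1-RGFP109 and 3.09 in WT-RGFP109 (27.2% higher, log2 ratio 0.35), and Ncor1 at 34.8 against 28.7 (21.4% higher, log2 0.28). Hdac2 was at 62.5 against 55.2 FPKM (log2 0.18), Hdac8 at 9.42 against 8.58 (0.14), Rcor1 at 5.70 against 5.22 (0.13) and Sin3a at 12.9 against 12.03 (0.10). These 6 genes were also higher in the R6/1 group under vehicle. Tbl1xr1 was at 9.10 against 9.30 (-0.031) and Mta1 at 22.2 against 22.3 (-0.00695).

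Hdac3 was at 59.7 FPKM in both groups, with a log2 ratio of 0.00074 that turned negative when the ratios were centered on all genes. No gene of the 9 passed 0.5 in log2, against 10.2% of all genes. At a ratio of 1.2, Hdac1 and Ncor1 passed, 2 of 9, where 28.7% of all genes passed in either direction and 11.1% upward. Ttc19, which overlaps Ncor1, was at 30.0 FPKM in WT-RGFP109 and 25.4 in R6/1-RGFP109 (log2 -0.24), the direction opposite to that of Ncor1.

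Across both sets of mice, 9 of the 9 genes had a genotype ratio of the same sign, or 8 of 9 with centered values, where Hdac3 had opposite signs. Among all 12991 genes compared, 83.1% had the same sign. The median difference in size between the vehicle and the RGFP109 ratio was 0.048 for the 9 genes and 0.084 for all genes.

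**Figure D3:**
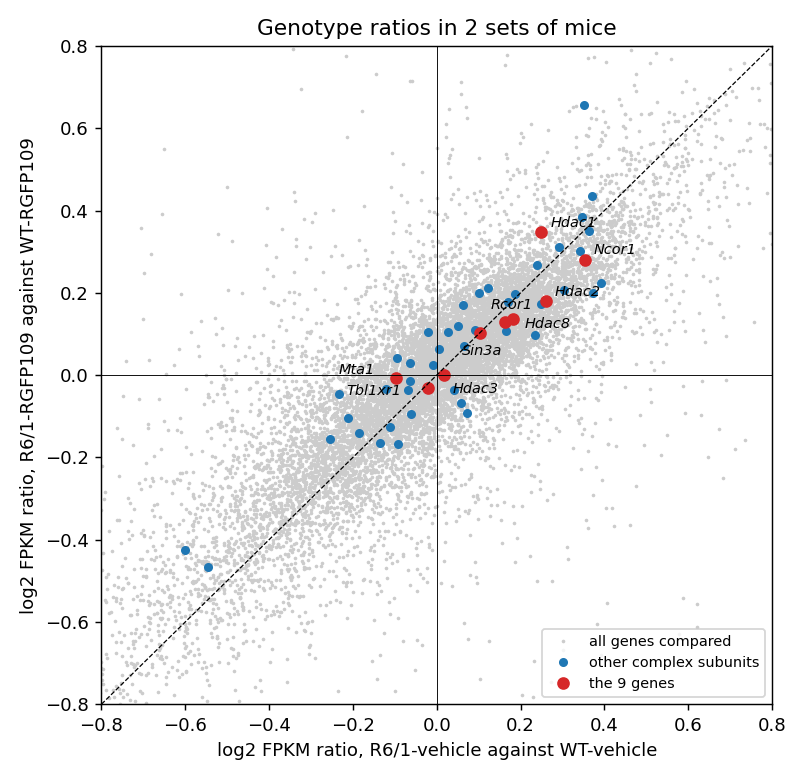
Log2 FPKM ratio of R6/1 to WT under vehicle (x axis) and under RGFP109 (y axis) for all 12991 genes compared (grey; 688 lie outside the axes), for other subunits of the complexes (blue) and for the 9 genes (red); the dashed line marks equal ratios. The 9 genes lie between -0.097 and 0.35 on both axes, in the body of the grey cloud, and Sap30 (0.35 and 0.66) is the blue point farthest above the line.

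RGFP109 was then compared with vehicle in R6/1 mice to ask whether the drug's targets or their complexes respond at the transcript level. This comparison shares the R6/1-vehicle libraries with the genotype comparison under vehicle. Hdac1 was at 4.05 FPKM against 4.32 in the table of this pair, 6.27% below vehicle (log2 ratio -0.093), the largest ratio in size of the 9, and 25.7% of all genes had a larger one. Rcor1 was lower by 5.35%, Hdac2 by 3.84% and Ncor1 by 3.64%. Tbl1xr1 and Mta1 were higher by 2.53% and 2.21%. Hdac8, Sin3a and Hdac3 were within 1% of vehicle, with log2 ratios of 0.0086, 0.0064 and 0.0051. Hdac3 was at 61.5 FPKM against 61.3, and 93.9% of genes had a larger ratio in size.

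None of the 9 passed 0.5 in log2, where 1.61% of all genes did, and none passed a ratio of 1.2, where 4.74% did. Their median log2 ratio was 0.0051 (5 of 9 above 0) and that of all genes 0.0032 (51.9% above 0). Summed choroid plexus markers, mostly Ttr, had a log2 ratio of -4.01 in this comparison, and neocortical neuron markers, mostly Slc17a7, one of 0.34.

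In WT mice, Hdac1 was again the gene with the largest RGFP109 ratio in size, with 2.97 FPKM against 3.39, 12.4% below vehicle (log2 -0.19), and 14.3% of all genes had a larger one. Hdac8 was higher by 4.11%, Tbl1xr1 by 3.36%, Hdac2 by 1.74%, Hdac3 by 1.61%, Ncor1 by 1.53% and Sin3a by 0.669%. Mta1 was lower by 3.85% and Rcor1 by 2.90%. Hdac3 was at 57.4 FPKM against 56.5, a log2 ratio of 0.023, and 82.0% of genes had a larger one in size.

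None of the 9 passed 0.5 in log2 in WT mice, where 2.23% of all genes did, or a ratio of 1.2, where 7.94% did. The median was 0.022 (6 of 9 above 0), against -0.0029 for all genes, of which 48.9% were above 0. Summed choroid plexus markers, mostly Ttr, had a log2 ratio of -2.21 and oligodendrocyte markers, mostly Mbp, of -0.36 in the same comparison.

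The RGFP109 ratios in WT and in R6/1 mice share no library either. Of the 9 genes, 6 had the same sign in both, and Hdac2, Ncor1 and Mta1 had opposite signs, where 49.9% of 13003 genes had the same sign. Hdac1 and Rcor1 were lower with RGFP109 in both genotypes. The log2 ratio in R6/1 minus that in WT ran from -0.081 for Hdac2 to 0.097 for Hdac1, and 44.3% of all genes had a larger difference in size than Hdac1. For Hdac3 the difference was -0.018.

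R6/1-RGFP109 was also set against WT-vehicle, a comparison that shares libraries with the ones above. Ncor1 was 23.3% higher (log2 0.30), Hdac2 15.2% and Hdac8 14.3% higher, and Hdac1 11.5% higher. Mta1 was lower by 4.31%, and the other 4 genes were between 1.15% and 7.97% higher. None of the 9 passed 0.5 in log2 (11.9% of all genes), and Ncor1 passed a ratio of 1.2 (33.7% of all genes in either direction and 13.7% upward). In the last pair, WT-RGFP109 was lower than R6/1-vehicle by 26.2% for Hdac1 and 20.5% for Ncor1, which both passed 1.2 (29.1% of all genes in either direction and 11.6% downward), and none of the 9 passed 0.5 in log2 (10.3%).

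Ratios between genes of 1 column do not depend on how that column was scaled. The 4 class I HDAC transcripts summed to 124 and 127 FPKM in the vehicle and RGFP109 groups of WT mice, and to 137 and 136 in those of R6/1 mice. Hdac3 held 47.1% of the sum in WT-vehicle and 47.2% in WT-RGFP109, and 43.1% and 44.1% in the R6/1 groups. Hdac2 held 43.5% and 43.6% in the WT groups and 47.1% and 46.1% in the R6/1 groups. The shares of Hdac2 and Hdac3 in R6/1-vehicle were thus close to the reverse of those in WT-vehicle.

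**Figure D4:**
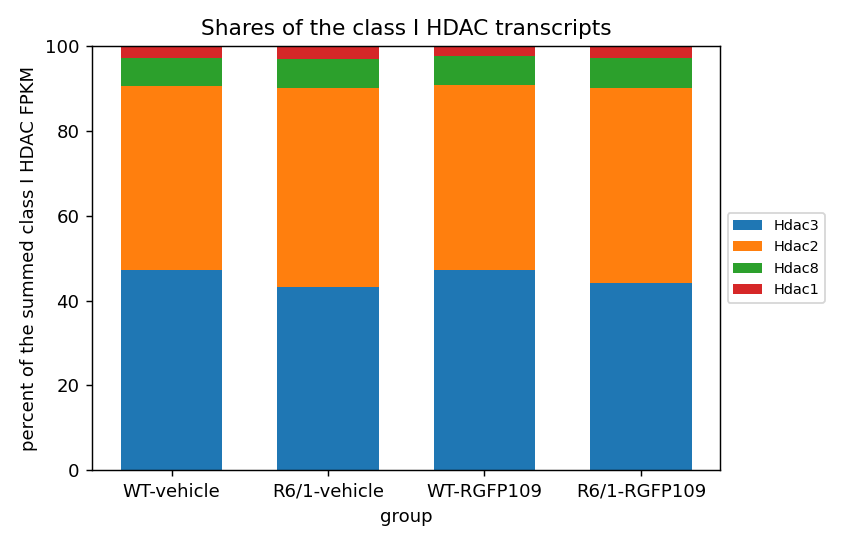
Share of each class I HDAC in the summed FPKM of the 4 genes, in percent, for the 4 groups. Hdac3 holds the largest share in both WT groups (47.1% and 47.2%) and Hdac2 in both R6/1 groups (47.1% and 46.1%).

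Hdac8 held 6.61% to 6.95% and Hdac1 2.44% to 3.04% in all groups. Hdac2 exceeded its close relative Hdac1 by 15.4-fold in WT-vehicle and 17.8-fold in WT-RGFP109, and by 15.5-fold and 15.9-fold in the R6/1 groups. The Hdac1 share was lowest in WT-RGFP109, the group with the lowest Hdac1 level. Hdac1 has close copies elsewhere in the genome and Hdac2 has none by the same search, so the Hdac1 share and the Hdac2 to Hdac1 ratio are uncertain.

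The FPKM ratio between scaffold paralogs differed between the WT and R6/1 groups for several pairs. Other gene pairs were not compared, and single genes had a median log2 genotype ratio of 0.18 in size under vehicle. Sin3b, the paralog of Sin3a, exceeded it 4.85-fold in WT-vehicle and 5.83-fold in R6/1-vehicle, and 4.47-fold and 5.64-fold under RGFP109. Sin3b, the paralog with the higher level, was also the one with the higher ratio of R6/1 to WT.

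Mta3 was at 0.763 of the Mta1 level in WT-vehicle and 1.04 in R6/1-vehicle, and at 0.762 and 1.00 under RGFP109. Rcor2 was at 1.36 times the Rcor1 level in WT-vehicle and 1.03 in R6/1-vehicle, and at 1.33 and 1.18 under RGFP109. Mta2 to Mta1 (0.909 to 0.966), Rcor3 to Rcor1 (1.16 to 1.29) and Tbl1x to Tbl1xr1 (2.03 to 2.19) had narrow ranges over the 4 groups.

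The paralogs' own values were as follows in the genotype comparison under vehicle. Sin3b was at 57.7 FPKM in WT-vehicle and 74.6 in R6/1-vehicle (log2 ratio 0.37) and Mta3 at 17.6 and 22.4 (0.35). Rcor2 was at 7.26 and 6.18 (-0.23). Rcor3 had a log2 ratio of 0.12, Tbl1x of 0.057 and Mta2 of -0.010.

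The wider set held 44 other subunits of the Sin3, NuRD, CoREST, NCoR, MiDAC and RERE complexes, listed from general knowledge of these complexes. In the genotype comparison under vehicle, 43 were at or above 1 FPKM in both groups, and Rest, the repressor that recruits CoREST to neuronal genes, was at 0.843 in WT-vehicle and 1.07 in R6/1-vehicle. None of the 43 passed 0.5 in log2 upward, where 3.02% of all genes did, and 2 passed downward, where 9.08% did. These were Brms1, a Sin3 subunit, at 35.1 and 23.1 FPKM (log2 -0.60) and Cdk2ap1, a NuRD subunit, at 2.10 and 1.44 (-0.55).

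At a ratio of 1.2, 9 of the 43 were higher in R6/1-vehicle (13.7% of all genes) and 2 lower (20.7% of all). Among the 9 were Sin3b, Sap30 and Arid4a of the Sin3 complex, Chd3, Mta3 and Gatad2b of NuRD, Zmym2 of CoREST, and Zbtb33. Zmym2 had the largest ratio, 13.3 and 17.4 FPKM (log2 0.39), and Gatad2b the next, 11.5 and 14.9 (0.37). Sin3 subunits had a median log2 ratio of 0.18 (10 of 14 above 0), NuRD subunits of -0.036 (4 of 10) and CoREST subunits of -0.061 (4 of 9). The median was 0.057 for NCoR subunits (3 of 5) and 0.090 for MiDAC and RERE subunits (5 of 5, from 0.027 to 0.16). Of all genes 49.4% were above 0, with a median of -0.0054 and a median size of 0.18.

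Under RGFP109, the genotype comparison gave 1 of 43 past 0.5 upward (2.55% of all genes) and none downward (7.62% of all). This gene was Sap30, a small Sin3 subunit, at 4.02 FPKM in WT-RGFP109 and 6.33 in R6/1-RGFP109 (log2 0.66), against 3.94 in WT-vehicle and 5.02 in R6/1-vehicle (0.35). Brms1 (log2 -0.43) and Cdk2ap1 (-0.47) were again lower in the R6/1 group.

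**Figure D5:**
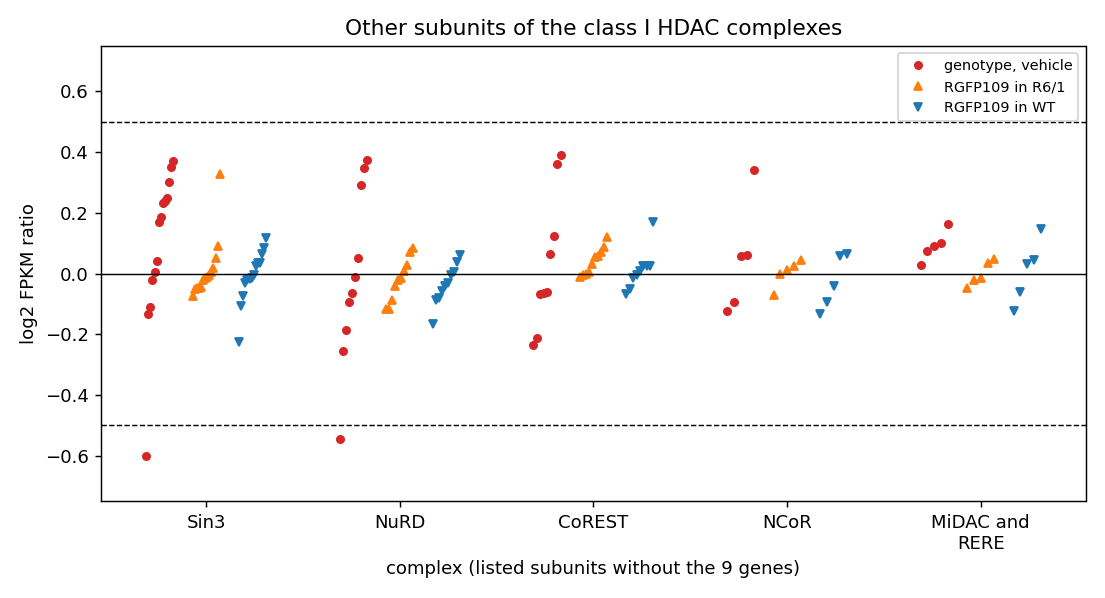
Log2 FPKM ratios of the other subunits by complex, for genotype under vehicle (circles), RGFP109 in R6/1 mice (upward triangles) and RGFP109 in WT mice (downward triangles), sorted within each column; dashed lines mark 0.5 in size. Brms1 (-0.60) and Cdk2ap1 (-0.55) lie below the lower line in the genotype comparison, and Sap30 (0.33) stands apart among the RGFP109 ratios in R6/1 mice.

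With RGFP109 in R6/1 mice, none of 44 subunits passed 0.5 in log2, where 1.61% of all genes did. Sap30 had the largest ratio (log2 0.33) and was the only 1 of 44 past a ratio of 1.2, where 4.74% of all genes passed. Rcor2 followed at 0.12, and Chd4, the main NuRD remodeling ATPase, and Gatad2b were lowest at -0.12 each. In WT mice none of 43 passed 0.5 (2.23% of all genes) or 1.2 (7.94%). Zmym2 (0.17) and Trerf1 (0.15) were highest there, and Brms1 (-0.23) and Cdk2ap1 (-0.16) lowest.

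The Sap30 ratio was 0.024 in WT mice, and the difference between genotypes, 0.30 in log2, was exceeded in size by 8.49% of all genes. Across the Sin3 subunits the median RGFP109 ratio was -0.013 in R6/1 mice and -0.0093 in WT mice. For NuRD it was -0.018 and -0.035, for CoREST 0.044 and 0.0085, for NCoR 0.013 and -0.042, and for MiDAC and RERE -0.013 and 0.032. All of these list medians were under 0.05 in size, as were those of all genes.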

How the data were processed

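Striatal RNA from 24 mice in 4 groups was sequenced as single-end reads of 51 bases. With STAR 2.5.0b the authors aligned the reads to mm10 and RefSeq transcripts, and with Cufflinks 2.2.1 they estimated expression. For each of the 6 pairs of groups, the Cuffdiff table they deposited gives 1 FPKM per gene and group, over all libraries of the group. Columns of fold changes, test statistics, p-values and q-values from the authors' own comparisons were not used. Each group was spread over both sequencing pools, the pool of each library is not given in the sources used here, and the deposited values combine the pools.

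Log2 ratios were taken within the table of a pair, without a pseudocount, for genes at or above 1 FPKM in both groups (13156 to 13315 genes). An absolute log2 ratio of 0.5 and an FPKM ratio of 1.2 served as sizes, each counted over all genes. Levels of the vehicle groups are from the table of both vehicle groups, and those of the treated groups from the table of both treated groups. The ratio and count code was checked on simulated data. Read counts, and so depth and precision, are unknown, and replicate values per gene were not analysed here.

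The 9 genes and the lists were chosen with earlier results of these data known. Named among the other subunits were the paralogs, genes past 0.5 in log2 in the genotype comparison under vehicle or either RGFP109 comparison, and the 2 highest and 2 lowest ratios of each of these 3 comparisons. Sap30 is also described for its RGFP109 and genotype values, and the subunits named as past 1.2, with Rest, were chosen after their values were seen. Values of some subunits are not reported here. Similar transcripts were sought with BLAST 2.17.0 in GENCODE M21. Python 3.11.15, numpy 2.4.6, pandas 2.3.3 and matplotlib 3.10.9 were used. Alternatives were centering on all genes, a common scale over 3 columns, a pseudocount of 1 FPKM, minimums of 0.1 and 5 FPKM, and the ratio of 1.2.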

Additional observations from a re-analysis of the deposited data

How the results depend on the processing

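Each value rests on 1 number per group, so no result below was tested against the spread between mice and leaving out single libraries was not possible. No paired analysis was possible because the deposited columns hold 1 value per group and carry no replicate numbers. Centering on all genes or a common scale moved the log2 ratios of the 9 genes by at most 0.012, and turned only the sign of Hdac3 in the genotype comparison under RGFP109. A pseudocount of 1 FPKM moved them by at most 0.096. No count of the 9 genes past 0.5 in log2 moved from 0 under the alternatives of scaling, pseudocount or minimum, and a minimum of 5 FPKM left out Hdac1, so that 8 were compared. With the ratio of 1.2 in place of 0.5, the count of the 9 genes was 1 for genotype under vehicle, 2 for genotype under RGFP109, 1 for R6/1-RGFP109 against WT-vehicle and 2 for WT-RGFP109 against R6/1-vehicle. For the 43 other subunits the counts became 11 from 2, 9 from 1, 10 from 3 and 10 from 0, in the same order. In those comparisons 34.4%, 28.7%, 33.7% and 29.1% of all genes passed 1.2, and 12.1%, 10.2%, 11.9% and 10.3% passed 0.5 in log2. For RGFP109 in R6/1 mice the count was 1 of 44 in place of 0, where 4.74% of all genes passed 1.2. For genotype under vehicle, the count of 2 subunits became 1 with a pseudocount of 1 FPKM and 1 with a minimum of 5 FPKM, which leaves out Cdk2ap1. A minimum of 5 FPKM also gave 0 in place of 1 for genotype under RGFP109 and 1 in place of 3 for R6/1-RGFP109 against WT-vehicle, since Sap30 and Cdk2ap1 lie below it.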

Other observations

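The genes whose pattern over the 4 groups lay nearest to that of Hdac1 and of Hdac3 were sought among the other 12964 genes at or above 1 FPKM in every column. The measure was the distance between log2 FPKM values of the 4 groups, each centered on its gene's mean, and 4 points allow many genes to lie close. For Hdac1, the nearest was Mpdz, a scaffold protein with PDZ domains, at a distance of 0.013 in log2, with 8.34 and 7.42 FPKM in the vehicle and RGFP109 groups of WT mice and 10.03 and 9.41 in those of R6/1 mice. Tmem237, a protein of the ciliary transition zone, followed at 0.020, and 78 genes lay within 0.1. For Hdac3, the nearest were Dhps, the enzyme of the first step of hypusine formation, at 0.0027, with 28.8 to 29.4 FPKM over the 4 groups, and Srgap2, a regulator of neuronal branching, at 0.0047. As many as 2679 genes lay within 0.1 of Hdac3.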
